A study of Mus musculus with 6 samples.

Results

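The genes described are 35 imprinted genes that lie outside the *Dlk1*-*Dio3* cluster, chosen by name from a list of known imprinted genes. Of the 35, 34 had a row in the table of 38553 genes, and no row was found under the name of *Kcnq1ot1*, which was not analysed here. They were sorted by the parental allele that is generally known to be active where the gene is imprinted, which for some is only in certain tissues. There were 15 maternally expressed genes, 19 paternally expressed genes (18 with a row) and *Gnas*, whose transcripts differ in the allele they come from. FPKM does not tell the parental alleles apart, so the values are for both alleles together. RNA-Seq was performed on poly(A)+ RNA of craniofacial tissue microdissected from 6 mouse embryos at E12.5. The 3 controls were Rbfox2 flox/flox without Cre. The 3 *Rbfox2* mutants were Pax3Cre/+:Rbfox2 flox/flox, so all 6 embryos carried floxed alleles and only the mutants carried Cre and a *Pax3* knock-in allele. Pax3Cre acts in the neural crest, and also in paraxial mesoderm and the derivatives of somites, while other cells of the dissected face keep *Rbfox2*. The mice were on mixed genetic backgrounds, and the question of the comparison was whether imprinted genes differed between the genotypes.

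Imprinted genes are expressed mainly or only from 1 parental allele, mostly because DNA methylation set in the egg or the sperm differs between the alleles. They lie in clusters in which a differentially methylated control region, often a promoter rich in CpG dinucleotides, governs several neighbours. ZFP57 and TRIM28 hold this methylation through early development, and DNMT1 copies it at each cell division. Many paternally expressed genes promote growth and many maternally expressed genes restrain it, and a large set of them is highly expressed in the embryo and declines after birth. Several are imprinted only in some tissues: *Ube3a*, *Copg2*, *Blcap* and *Trappc9* are known for imprinting in neural tissue, and *Cd81*, *Ascl2* and *Tspan32* for imprinting in the placenta.

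Sequences are shown to make the cluster promoters and the embedded miRNAs concrete. Promoter windows of 300 bases, 250 before to 50 after a transcription start, were taken from RefSeq, where 28 of the 35 genes had 41 windows. *Phlda2* is shown because it was the gene whose control and mutant values did not overlap. Its window lies within its own annotated gene. *Usp29* and *Peg3* are transcribed away from each other from a start region in which their windows share 263 bases. In both windows CpG dinucleotides are in capitals, 26 of them for *Phlda2* and 17 for *Usp29*.
Phlda2 (GRCm38.p6 chr7:143502475-143502774, minus strand): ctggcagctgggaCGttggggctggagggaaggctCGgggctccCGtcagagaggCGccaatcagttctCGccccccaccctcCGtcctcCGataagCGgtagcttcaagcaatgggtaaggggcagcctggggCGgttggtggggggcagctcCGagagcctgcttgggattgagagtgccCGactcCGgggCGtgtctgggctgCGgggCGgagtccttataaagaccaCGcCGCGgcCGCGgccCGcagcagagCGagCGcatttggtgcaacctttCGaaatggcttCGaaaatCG
Usp29 (GRCm38.p6 chr7:6730333-6730632, plus strand): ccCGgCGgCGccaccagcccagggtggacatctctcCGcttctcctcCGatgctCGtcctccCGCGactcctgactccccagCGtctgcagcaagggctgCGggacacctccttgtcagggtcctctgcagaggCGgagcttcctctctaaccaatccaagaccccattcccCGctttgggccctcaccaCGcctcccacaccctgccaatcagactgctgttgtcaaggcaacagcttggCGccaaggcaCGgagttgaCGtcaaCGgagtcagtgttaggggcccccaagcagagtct

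The letters TGCCGC, the core of the site that ZFP57 binds when it is methylated, were searched on both strands of the windows, where the other strand reads GCGGCA. They were present in at least 1 window of 9 of the 28 genes (32.1%), namely *Copg2*, *Grb10*, *Mest*, *Nap1l5*, *Nnat*, *Plagl1*, *Snrpn*, *Zdbf2* and *Zim1*. Of all 27025 genes with a window, 13.1% held them. By window the shares were 24.4% of 41 and 11.6% of 32851. The median number of CpG in the richest window of a gene was 17 among the imprinted genes and 8 among all genes. The match describes letters in a window and is not evidence of binding. For 5 paternally expressed genes that return below, 60 bases around a match are shown with the match in capitals. The piece of *Nnat* spans the annotated gene start, those of *Plagl1* and *Mest* lie inside the gene, and those of *Nap1l5* and *Snrpn* lie just upstream of it.
Nap1l5 (GRCm38.p6 chr6:58907118-58907177, minus strand): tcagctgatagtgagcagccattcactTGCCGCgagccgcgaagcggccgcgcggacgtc
Snrpn (GRCm38.p6 chr7:60005169-60005228, minus strand): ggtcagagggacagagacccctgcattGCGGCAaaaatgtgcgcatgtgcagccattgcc
Plagl1 (GRCm38.p6 chr10:13090715-13090774, plus strand): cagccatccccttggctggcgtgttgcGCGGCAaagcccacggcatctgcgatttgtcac
Nnat (GRCm38.p6 chr2:157560068-157560127, plus strand): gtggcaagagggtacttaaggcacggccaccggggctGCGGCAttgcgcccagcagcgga
Mest (GRCm38.p6 chr6:30737800-30737859, plus strand): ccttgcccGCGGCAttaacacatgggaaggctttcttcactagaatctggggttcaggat

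*H19* is the host of miR-675 and *Mest* of miR-335, and their mature sequences from RefSeq are shown with the seed, bases 2 to 8, in capitals. The 4 seeds differ from each other. The gene rows *Mir675* and *Mir335* were listed at 0 in all 6 samples. Libraries of poly(A)+ RNA do not capture mature miRNAs, so the FPKM of *H19* and *Mest* below is that of the host transcripts.
mmu-miR-675-5p (GRCm38.p6 chr7:142577112-142577133, minus strand): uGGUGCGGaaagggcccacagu
mmu-miR-675-3p (GRCm38.p6 chr7:142577078-142577099, minus strand): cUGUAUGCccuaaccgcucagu
mmu-miR-335-5p (GRCm38.p6 chr6:30741314-30741336, plus strand): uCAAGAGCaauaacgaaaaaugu
mmu-miR-335-3p (GRCm38.p6 chr6:30741354-30741375, plus strand): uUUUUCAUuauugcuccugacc

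Some facts about all 6 samples bear on every value. FPKM, fragments scaled by gene length and by all mapped fragments, summed to between 528123 and 590174 in the samples. How many reads lie behind a value is unknown. In the mutants *Rbfox2* was at 38.1, 36.3 and 34.3 against 58.4, 65.0 and 61.3 in the controls, or 58.9% of the control mean, with a log2 difference of -0.75 (SE 0.079, adjusted p = 0.14 by limma). The first replicate of each genotype stood apart from the other 4 samples on the first principal component, which held 54.7% of the variance, at -19.1 and -17.0 against 7.55 to 11.01. The sum of 4 Y-linked genes was 57.7 and 55.5 in mutant replicates 1 and 2 and between 0.0989 and 0.217 in the other 4 samples, so Y-linked RNA at a level above 1 was found only in mutants. *Xist*, a marker of female cells, was at 98.8, 116 and 73.7 in controls and 0.383, 0.330 and 52.7 in mutant replicates 1, 2 and 3. By these genes mutant replicates 1 and 2 were male and the other 4 samples female, so no control was male. Of the 12 neuron markers, all tested, 4 were higher in the mutants at an unadjusted p under 0.05 and 11 had a positive difference. Their sum ranged from 894 to 962 in controls and from 1048 to 1136 in mutants. The 10 cranial mesenchyme markers that define the labelled tissue summed to between 407, in mutant replicate 2, and 504, in control replicate 2. None of them was under 1 in all samples. In bulk tissue, fewer cells of a type and less RNA per cell cannot be told apart.

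Several imprinted genes were among the most abundant transcripts of the face. The comparison is with all genes in the table, of which 35.6% had a mean FPKM above 1, against 88.2% of the 34 imprinted genes. On the FPKM scale, which corrects for gene length, 10 of the 34 genes (29.4%) had a mean over 6 samples above 100, against 2.14% of all genes in the table. A mean above 10 was reached by 22 (64.7%), 9 of them maternally and 12 paternally expressed together with *Gnas*, against 20.8% of the table. Only *H19* and *Nnat* exceeded 1000, and they ranked 24 and 39 among the 38553 genes. *Gnas*, *Mest*, *Cdkn1c*, *Grb10* and *Ndn* followed at ranks 130, 195, 198, 245 and 385. The 34 genes together took between 0.943% and 1.09% of the summed FPKM of a sample, and *H19*, *Nnat* and *Gnas* alone made up 60.9% to 66.6% of that. Maternally expressed genes took 0.407%, 0.578% and 0.515% in control replicates 1, 2 and 3 and 0.475%, 0.464% and 0.451% in the mutants. Paternally expressed genes took 0.451%, 0.377% and 0.409% in control replicates 1, 2 and 3 and 0.470%, 0.442% and 0.410% in the mutants. The mutant values lay within the control range for the maternal share, and overlapped with the controls for the paternal share.

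**Figure D1:**
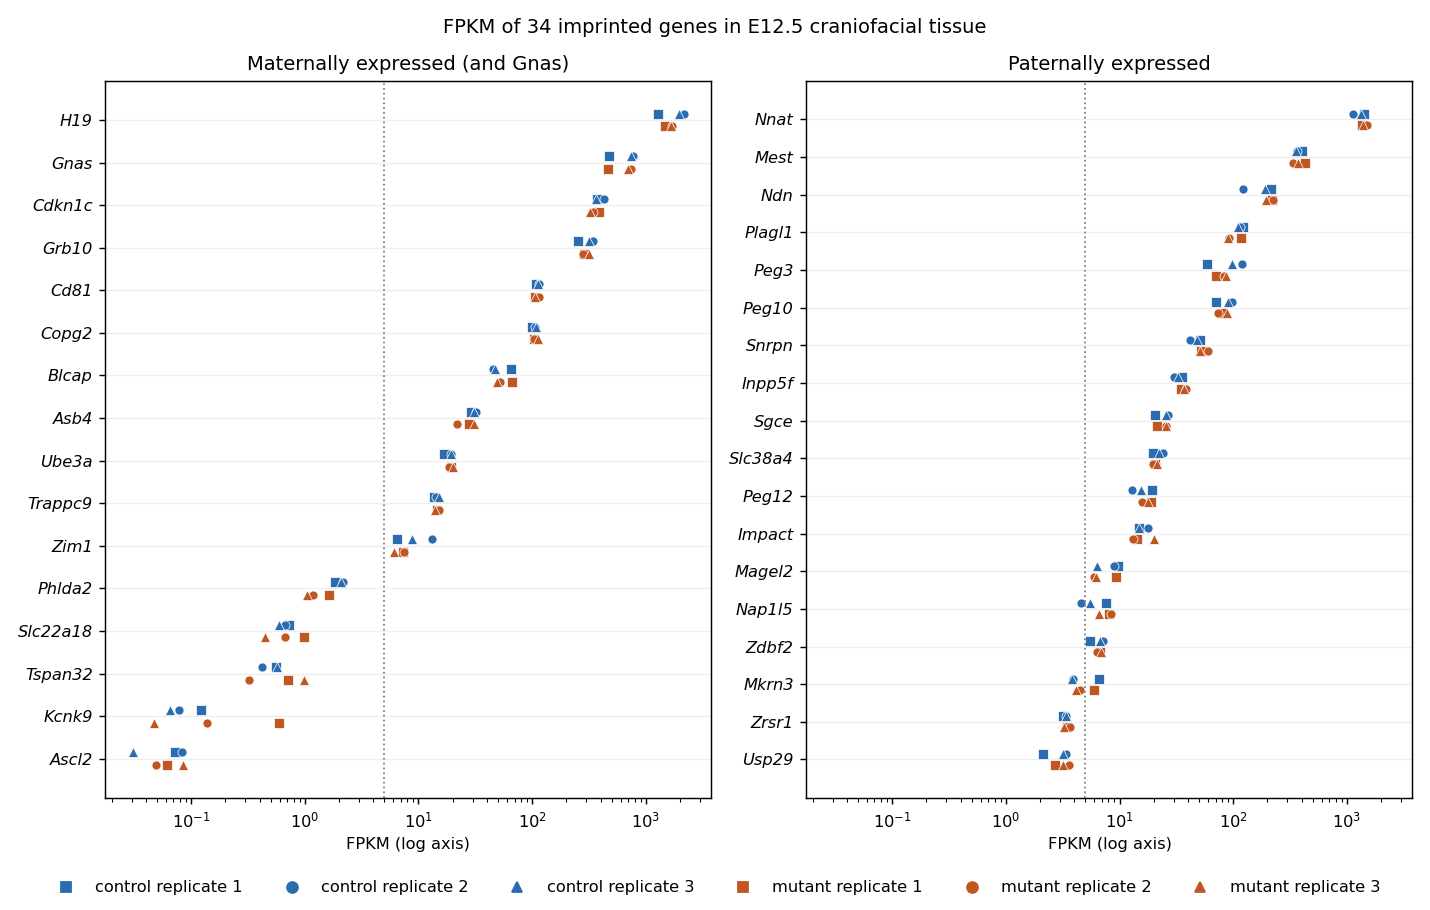
FPKM (log axis) of the 34 imprinted genes with a row, 1 point per sample, maternally expressed genes with *Gnas* on the left and paternally expressed genes on the right, ordered by mean. The dotted line marks an FPKM of 5, the level used to choose genes for testing, and *H19* and *Nnat* lie above 1000 in all 6 samples.

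The genotypes were compared on log2(FPKM + 1) with limma, over the 10061 genes whose FPKM exceeded 5 in all samples of a genotype, with Benjamini-Hochberg adjustment. No gene passed an adjusted p of 0.05 (0% of 10061), and 167 (1.66%) had an unadjusted p under 0.05. Of the imprinted genes 26 passed the filter, 10 maternally expressed, 15 paternally expressed and *Gnas*. None of the 26 had an adjusted or an unadjusted p under 0.05, and every adjusted p was 1. In none of the 26 did the control and mutant values separate, whereas 5% of all genes tested had groups that did not overlap. The differences between genotypes, mutant minus control on the log2(FPKM + 1) scale, ran from -0.35 to 0.36. There were 13 positive and 13 negative, with a median of -0.0074 against 0.0057 for all genes tested. Maternally expressed genes had 4 positive and 6 negative differences with a median of -0.034, and paternally expressed genes 9 positive and 6 negative with a median of 0.0082. The 4 positive maternally expressed genes were *Blcap*, *Ube3a*, *Trappc9* and *Copg2*, those known for imprinting in neural tissue. The 6 negative were *Cdkn1c*, *H19*, *Grb10*, *Zim1*, *Asb4* and *Cd81*. The median size of a difference was 0.11 for the imprinted genes and 0.054 for all genes, beside median standard errors (SE) of 0.13 and 0.105.

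The count of calls depended on the samples used and on the treatment of the first replicates. With the replicate number as a block, 2 of 26 genes (7.69%), *Plagl1* and *Nap1l5*, had an unadjusted p under 0.05, against 6% of all genes tested. On replicates 2 and 3 alone there were 8 (30.8%), against 11% of 10258 genes tested, namely *Cdkn1c*, *H19*, *Peg3*, *Plagl1*, *Zim1*, *Snrpn*, *Nap1l5* and *Inpp5f*, the first 5 lower and the last 3 higher in the mutants. The lowest adjusted p by limma among them was 0.33, for *Plagl1*. Leaving out control replicate 1 also gave 8 genes, *H19*, *Peg3*, *Zim1*, *Ndn*, *Snrpn*, *Nap1l5*, *Inpp5f* and *Peg12*, against 6.75% of all genes tested. Leaving out mutant replicate 1 gave *Plagl1* (4.08% of all genes tested) and leaving out mutant replicate 3 gave *Nap1l5* (1.34%), and leaving out any of the other 3 samples gave none. With replicates of the same number set against each other, 7 of 26 genes (26.9%) differed in the same direction in all 3, against 26.8% of all genes tested. *Ndn*, *Snrpn*, *Nap1l5* and *Blcap* were the 4 higher in each mutant and *Plagl1*, *Gnas* and *Magel2* the 3 lower.

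**Figure D2:**
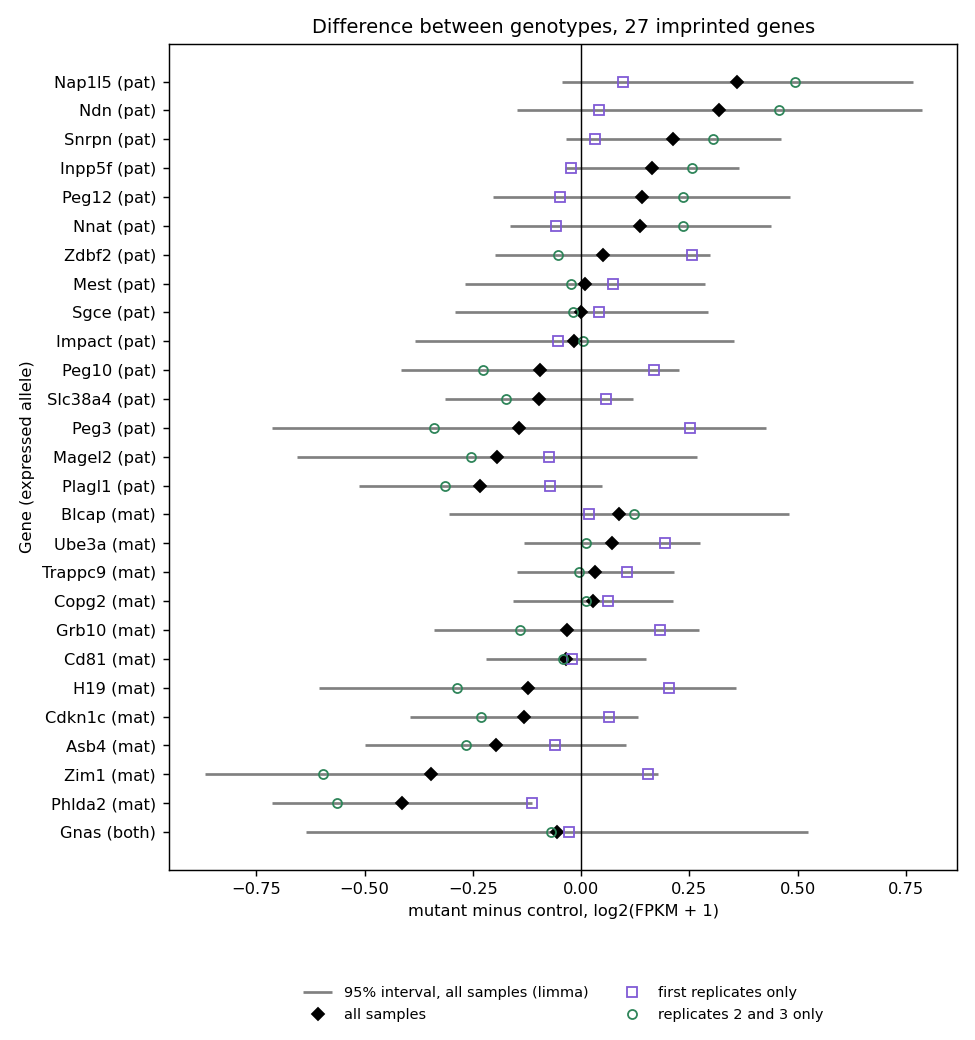
Difference between genotypes, mutant minus control on log2(FPKM + 1), for the 26 tested genes and *Phlda2*. Black diamonds are the estimates from all samples with their 95% interval by limma, open squares the first replicates alone and open circles replicates 2 and 3 alone, and for *Phlda2* the interval comes from the fit on all genes without a filter and is the only interval that excludes 0.

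Among the maternally expressed genes, *H19*, *Cdkn1c* and *Grb10*, which are known to restrain growth, had the highest levels. *H19* (chr7:142575529-142578143), a long noncoding RNA that shares enhancers with *Igf2*, had an FPKM of 1290, 2159 and 1958 in control replicates 1, 2 and 3 and of 1484, 1692 and 1679 in mutant replicates 1, 2 and 3, which gave a log2 difference of -0.12 (SE 0.20). All 3 mutants lay inside the control range, and control replicate 1 was the lowest and control replicate 2 the highest of the 6 samples. *Cdkn1c* (chr7:143458339-143461050), which encodes the cyclin-dependent kinase inhibitor p57, was at 369, 428 and 361 in controls and 386, 346 and 324 in mutants, a log2 difference of -0.13 (SE 0.11). Mutant replicates 2 and 3 were below every control and mutant replicate 1 was not. *Grb10*, an adaptor that dampens insulin and IGF receptor signalling, was at 253, 343 and 315 in controls and 287, 282 and 316 in the mutants, with a log2 difference of -0.033 (SE 0.13). The mutant values fell within the control range.

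The other tested maternally expressed genes have various functions. *Zim1*, a zinc finger gene beside *Peg3*, was at 6.46, 13.2 and 8.71 in controls and 7.30, 7.53 and 6.05 in mutants. Its log2 difference of -0.35 (SE 0.22) was the most negative of the 26, with control replicate 2 far above the other 5 samples. *Asb4*, which encodes a substrate adaptor of a ubiquitin ligase, was at 29.2, 32.3 and 30.7 in controls and 28.0, 21.9 and 30.8 in mutants, a log2 difference of -0.20 (SE 0.13). The low value was mutant replicate 2, and mutant replicate 3 lay among the controls. *Blcap*, whose transcript is a known substrate of RNA editing, was at 65.3, 45.7 and 47.4 in controls and 66.1, 52.1 and 49.4 in mutants, a log2 difference of 0.088 (SE 0.17). In both genotypes the first replicate was high.

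*Cd81*, a tetraspanin, *Copg2*, a subunit of the COPI vesicle coat, *Ube3a*, a ubiquitin ligase, and *Trappc9*, a subunit of a trafficking complex, had the smallest spread of the 26 genes, with a highest value 1.096 to 1.216 times the lowest. *Cd81* was at 108, 115 and 113 in controls and 106, 116 and 106 in mutants. *Copg2* was at 99.6, 106 and 108 in controls and 104, 103 and 113 in mutants. Neither gene separated the genotypes, and their log2 differences were -0.036 (SE 0.078) and 0.028 (SE 0.079). *Ube3a* was at 16.7, 19.2 and 19.2 in controls and 19.2, 18.5 and 20.3 in mutants. *Trappc9* was at 13.6, 14.3 and 15.1 in controls and 14.7, 15.2 and 14.0 in mutants. The control and mutant ranges overlapped for both, and their log2 differences were 0.071 (SE 0.086) and 0.033 (SE 0.077).

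*Gnas* (chr2:174284320-174346744), which encodes the stimulatory G protein alpha subunit and further transcripts from the maternal or the paternal allele, was at 475, 770 and 743 in controls and 466, 742 and 701 in mutants. The first replicate of each genotype was well below the other 2, by 0.67 on the log2(FPKM + 1) scale in the controls and 0.63 in the mutants. The genotypes differed by -0.055 (SE 0.25), and the SE was 0.053 with the replicate block.

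Among the paternally expressed genes, the transcription factor gene *Plagl1* (chr10:13060504-13131694), a regulator of a network of imprinted genes, was at 123, 116 and 110 in controls and 117, 91.6 and 89.4 in mutants. Mutant replicates 2 and 3 were below every control and mutant replicate 1 lay within the control range. The means were 116 ± 6.44 and 99.3 ± 15.3 (SD, n = 3 each), 85.5% of control. Its log2 difference was -0.23 (SE 0.12, unadjusted p = 0.090 by limma). With the replicate block the SE was 0.066 and the unadjusted p 0.013, with an adjusted p of 0.79 by limma. The difference was -0.071 between the first replicates and -0.31 in replicates 2 and 3.

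*Nap1l5* (chr6:58905233-58907076), a nucleosome assembly protein gene that sits in an intron of *Herc3*, had the largest positive difference. It was at 7.55, 4.54 and 5.53 in controls and 8.14, 8.50 and 6.55 in the mutants, with means of 5.88 ± 1.53 and 7.73 ± 1.03 (SD, n = 3 each), 132% of control. Mutant replicates 1 and 2 were above every control, and mutant replicate 3 was below control replicate 1. The log2 difference was 0.36 (SE 0.17, unadjusted p = 0.074 by limma), and with the replicate block the SE was 0.14 and the unadjusted p 0.046, with an adjusted p of 0.82 by limma. The difference was 0.096 between the first replicates and 0.49 in replicates 2 and 3. With a covariate for the Y-linked genes, which in effect sets mutant replicate 3 alone against the controls, it was 0.16 (SE 0.24). The neuron marker sum also separated the genotypes in the direction of *Nap1l5*, and its part in the difference was not tested.

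The genes of the Prader-Willi region on chromosome 7 that passed the filter were *Snrpn*, *Ndn*, *Magel2* and *Peg12*. *Snrpn*, which encodes a spliceosomal protein of neurons, was at 51.3, 41.9 and 47.9 in controls and 52.5, 60.3 and 51.2 in mutants, 116% of control, with a log2 difference of 0.21 (SE 0.11, unadjusted p = 0.082 by limma). Only mutant replicate 3 fell below a control. *Ndn*, which encodes necdin, a regulator of neuronal growth and survival, was at 213, 123 and 189 in controls and 219, 224 and 196 in the mutants, with a log2 difference of 0.32 (SE 0.20). The gap came from control replicate 2, where the difference from mutant replicate 2 was 0.86 on the log2(FPKM + 1) scale, against 0.042 and 0.050 for replicates 1 and 3. Without control replicate 2 the log2 difference of *Ndn* was 0.085. *Magel2*, a relative of *Ndn* that acts with ubiquitin ligases, was at 9.79, 8.86 and 6.31 in controls and 9.24, 5.98 and 6.27 in mutants, a log2 difference of -0.19 (SE 0.20). *Peg12* was at 19.5, 12.96 and 15.3 in controls and 18.8, 15.9 and 17.7 in mutants, a log2 difference of 0.14 (SE 0.15). For both the genotypes overlapped.

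*Nnat* (chr2:157560078-157562522), a proteolipid gene of the developing brain that lies inside *Blcap* on the other strand, was the most abundant paternally expressed gene. It was at 1427, 1133 and 1337 in controls and 1371, 1511 and 1388 in mutants, a log2 difference of 0.14 (SE 0.13). Control replicate 1 lay above mutant replicates 1 and 3. *Inpp5f*, a phosphoinositide phosphatase gene with an imprinted variant in brain, was at 35.1, 30.1 and 32.4 in controls and 34.5, 38.3 and 36.8 in mutants, a log2 difference of 0.16 (SE 0.086, unadjusted p = 0.097 by limma). Mutant replicates 2 and 3 were above every control and mutant replicate 1 was below control replicate 1.

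The paternally expressed genes tied to growth and the placenta showed no separation either. *Mest*, a hydrolase gene of embryonic mesoderm, was at 406, 364 and 353 in controls and 428, 338 and 368 in mutants, a log2 difference of 0.0082 (SE 0.12). *Peg3*, a zinc finger gene, was at 59.2, 119 and 98.0 in controls and 70.6, 83.5 and 86.9 in mutants, a log2 difference of -0.14 (SE 0.24). The mutants of *Peg3* lay inside the control range, whose ends were control replicate 1 and control replicate 2, 2.02 times apart. *Peg10*, derived from a retrotransposon and required in the placenta, was at 70.4, 97.8 and 90.6 in controls and 79.3, 73.4 and 87.7 in mutants, a log2 difference of -0.095 (SE 0.14). *Sgce*, which encodes epsilon-sarcoglycan and is transcribed away from *Peg10*, was at 20.7, 26.7 and 25.6 in controls and 21.3, 25.8 and 25.8 in mutants, and the genotypes had nearly equal means of 24.3 each. *Slc38a4*, an amino acid transporter gene, was at 19.7, 24.2 and 22.1 in controls and 20.5, 19.6 and 21.2 in mutants, a log2 difference of -0.097 (SE 0.092).

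*Impact* and *Zdbf2* complete the tested paternally expressed genes. *Impact*, a regulator of the GCN2 kinase pathway, was at 14.9, 17.9 and 14.7 in controls and 14.3, 13.3 and 19.9 in mutants. *Zdbf2* was at 5.49, 7.15 and 6.69 in controls and 6.75, 6.36 and 6.91 in mutants. The log2 differences were -0.015 (SE 0.16) and 0.050 (SE 0.11), and in *Impact* mutant replicate 3 was the highest and mutant replicate 2 the lowest of the 6 samples.

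The other 8 genes with a row had too low an FPKM to pass the filter, and 4 of them had a mean above 1. *Phlda2* (ENSMUSG00000010760, chr7:143501545-143503150), a maternally expressed gene whose product restrains placental growth, was at 1.83, 2.19 and 2.07 in controls and 1.62, 1.19 and 1.05 in mutants. All 3 mutants were below all 3 controls, with means of 2.03 ± 0.180 and 1.29 ± 0.297 (SD, n = 3 each), 63.3% of control. The exact two-sided permutation test gave p = 0.10, the smallest that 3 samples against 3 allow. In limma without a filter its log2 difference was -0.41 (SE 0.12, 95% interval -0.71 to -0.11) with an unadjusted p of 0.015 and an adjusted p of 1. It was the only 1 of the 34 genes with an unadjusted p under 0.05, where 2.87% of 23063 genes passed. It was also the only 1 of 30 genes with an FPKM above 1 in all samples of a genotype whose groups did not overlap, where 5.96% of 13415 genes did not overlap. The difference by replicate number was -0.11, -0.54 and -0.58. Over 11 other settings, most of them chosen after the data were seen, the log2 difference stayed between -0.57 and -0.34 with an unadjusted p from 0.0032 to 0.040 and an adjusted p of at least 0.38. The number of reads behind an FPKM near 1 is unknown.

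Of the other low genes none separated the genotypes. *Mkrn3*, a ubiquitin ligase gene of the Prader-Willi region, was at 6.56, 3.93 and 3.82 in controls and 5.92, 4.49 and 4.11 in the mutants, with the first replicate high in both. *Usp29*, a deubiquitinase gene beside *Peg3*, was at 2.11, 3.36 and 3.18 in controls and 2.69, 3.62 and 3.21 in mutants. *Zrsr1*, a retrogene related to a splicing factor, was at 3.19, 3.399 and 3.35 in controls and 3.42, 3.68 and 3.22 in mutants. Their log2 differences without a filter were 0.037 (SE 0.22), 0.11 (SE 0.17) and 0.042 (SE 0.097). *Slc22a18*, *Tspan32*, *Kcnk9* and *Ascl2*, all maternally expressed, had means under 1, and their highest values in any sample were 0.977, 0.988, 0.588 and 0.0849. *Slc22a18* lies next to *Phlda2* in the *Cdkn1c* cluster, and its controls and mutants overlapped.

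**Figure D3:**
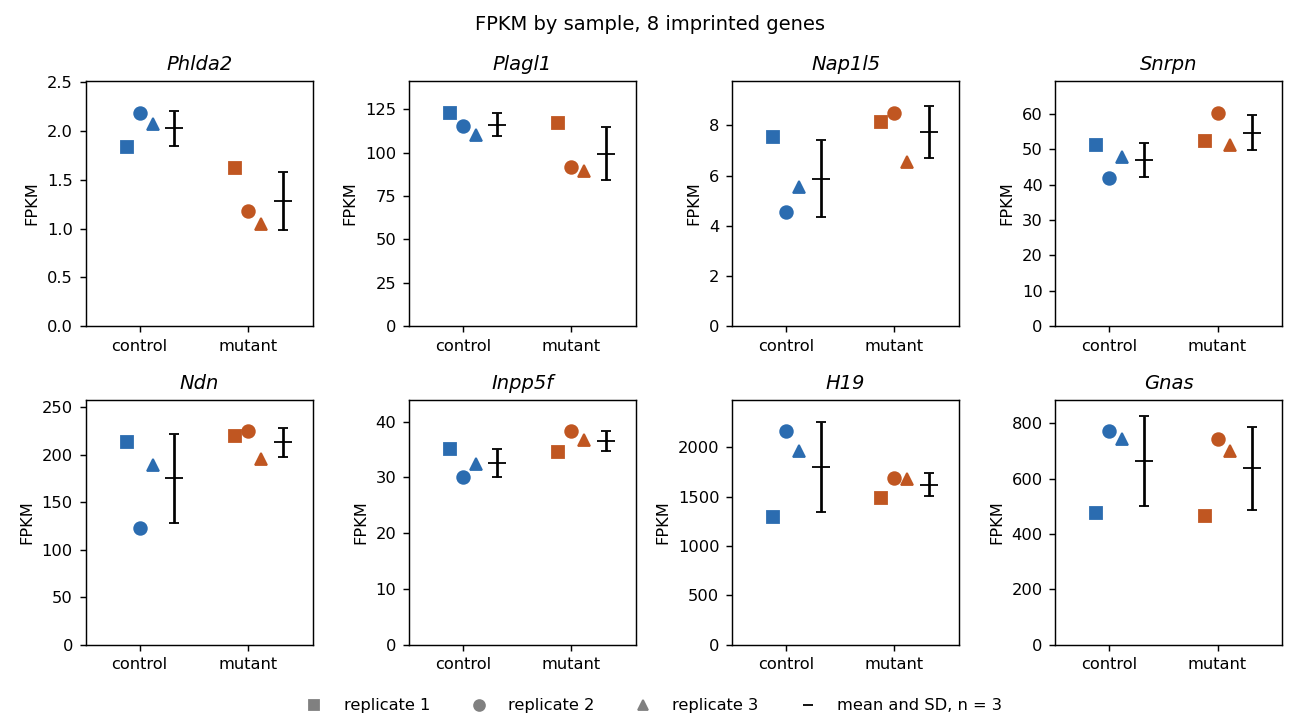
FPKM by sample (linear axes from 0) of *Phlda2*, *Plagl1*, *Nap1l5*, *Snrpn*, *Ndn*, *Inpp5f*, *H19* and *Gnas*, with the mean and SD of 3 samples per genotype at the right of each group. The groups are separate only for *Phlda2*, while the first replicates (squares) of *Gnas* are low in both genotypes.

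Neighbours listed with opposite expressed alleles were also compared within each sample, as log2 ratios of FPKM + 1, paternally over maternally expressed. The partners *Ube3a*, *Blcap* and *Copg2* are known for imprinting in neural tissue, and FPKM does not show whether they are imprinted in the face. *Peg3* over *Zim1* was 3.15 ± 0.18 in controls and came to 3.35 ± 0.27 in mutants (SD, n = 3 each), a difference of 0.20 (SE 0.19). *Snrpn* over *Ube3a* differed by 0.14 (SE 0.18), *Peg10* over *Asb4* by 0.10 (SE 0.13), *Nnat* over *Blcap* by 0.049 (SE 0.18) and *Mest* over *Copg2* by -0.020 (SE 0.14). The genotypes overlapped in all 5 pairs, and exact permutation p-values ran from 0.4 to 0.9, all 0.9 after Benjamini-Hochberg adjustment over the 5. The paternally expressed gene was the more abundant in each pair, from 2.60 times for *Snrpn* over *Ube3a* to 24.8 times for *Nnat* over *Blcap* on average. *Mest* and *Copg2* overlap at their ends and *Nnat* lies within *Blcap*, each on opposite strands, and since the strand setting of the counting is not stated, reads of these partners may not have been told apart.

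The sample that most often held an extreme value was control replicate 2. It was the highest or the lowest of the 6 samples for 18 of 26 imprinted genes (69.2%), against 39.6% of all genes tested. The 11 genes highest in it were *Cdkn1c*, *H19*, *Peg3*, *Peg10*, *Grb10*, *Zim1*, *Sgce*, *Gnas*, *Slc38a4*, *Asb4* and *Zdbf2*. The 7 lowest in it were *Ndn*, *Snrpn*, *Nnat*, *Nap1l5*, *Peg12*, *Inpp5f* and *Blcap*. Mutant replicate 2 held an extreme for 12 of 26 (46.2%, against 27.02% of all genes tested) and was the highest for *Ndn*, *Snrpn*, *Nnat*, *Nap1l5*, *Inpp5f*, *Trappc9* and *Cd81*. Control replicate 3 held none, against 16.6% of all genes tested.

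**Figure D4:**
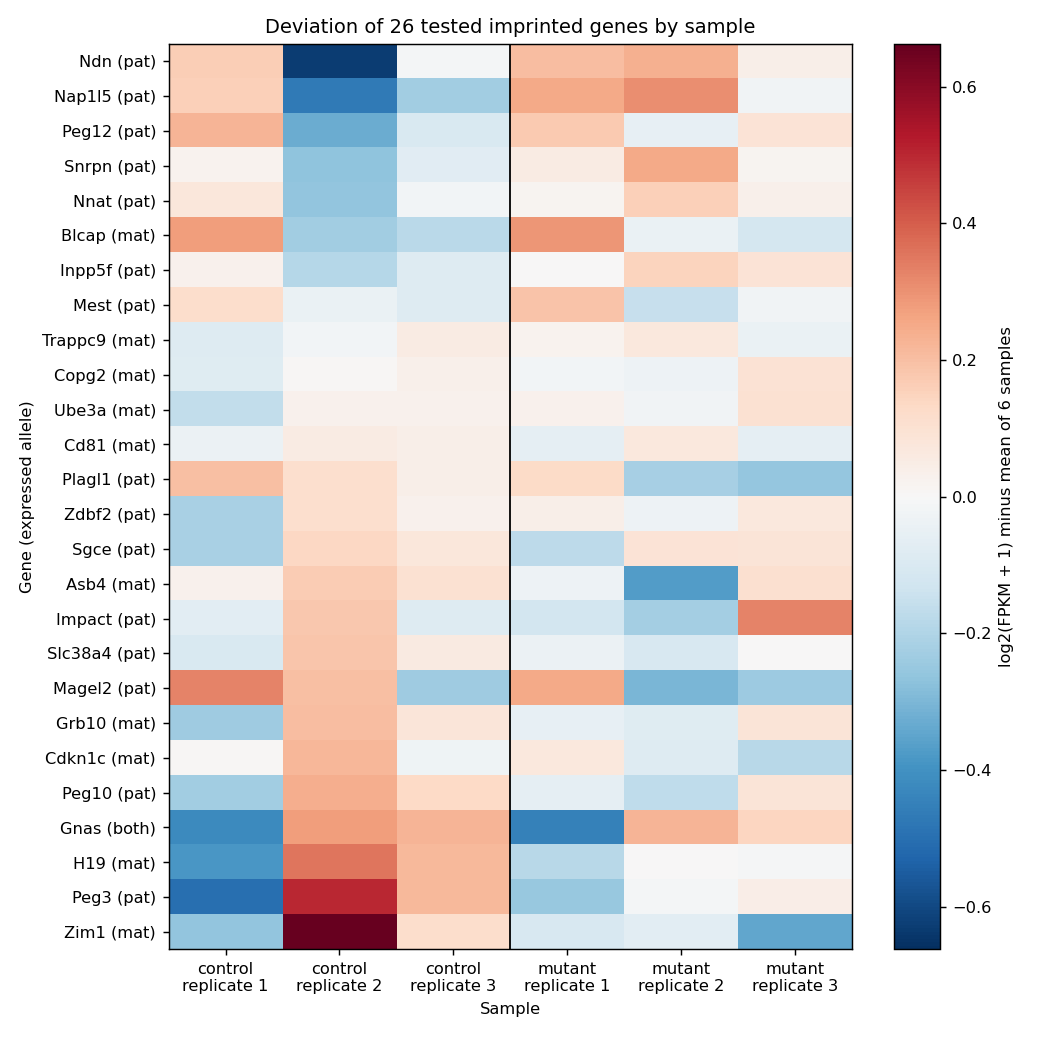
Deviation of each sample from the mean of the 6 samples, on log2(FPKM + 1), for the 26 tested genes, with the expressed allele in brackets (mat, pat or both). Control replicate 2 holds the deepest blue of the map, in *Ndn*, and the deepest reds, in *Zim1* and *Peg3*.

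Cell type markers also differed among the samples. In control replicate 2 the sum of 9 skeletal muscle markers was 488, against 177 and 293 in the other controls and 174 to 272 in the mutants. The sums for cranial mesenchyme, cartilage and bone, epithelium and endothelium were also highest there, at 504, 253, 245 and 110. The sum of 10 forebrain progenitor markers was lowest there, at 365 against 514 to 653 in the other 5 samples, and highest in mutant replicate 2. The sum of the 12 neuron markers, of which *Tubb3* was the largest part, was also lowest in control replicate 2 and highest in mutant replicate 2. Singly, 7 of the 12 were lowest in control replicate 2 and 3 highest in mutant replicate 2. These were the samples where *Ndn*, *Snrpn*, *Nnat*, *Nap1l5* and *Inpp5f* had their lowest and highest values. None of the neuron or forebrain progenitor markers was under 1 in all samples, and 1 of the muscle markers was. The sum of 6 choroid plexus markers was 13.2 in control replicates 2 and 3 and 34.2 to 85.2 in the other 4 samples. This gap was mostly *Ttr*, at 1.04 and 1.91 in control replicates 2 and 3 and 22.9 to 67.6 in the others. *Aqp1* did not follow it, at 9.32 and 8.39 in those replicates and 5.33 to 9.59 in the others. Of the 6 markers, 2 were under 1 in all samples. The sum of 6 erythroid markers was 4577 in control replicate 2 and 4985 to 9092 in the other 5 samples. That of 7 markers of dividing cells was 690 in control replicate 1 and 652 in mutant replicate 1, and 815 to 913 in the other 4 samples. The part of cell composition in the differences of the imprinted genes was not tested.

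**Figure D5:**
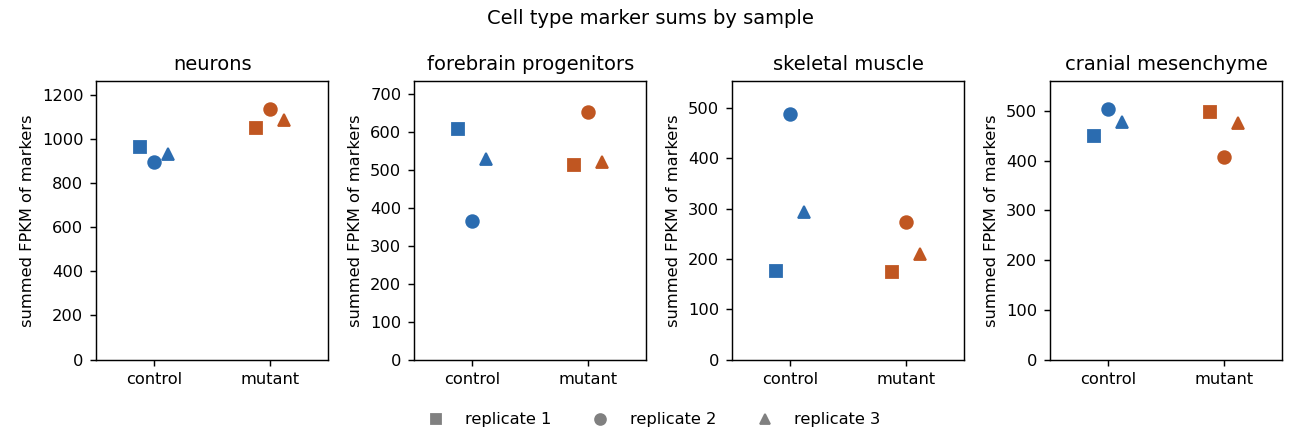
Summed FPKM of fixed marker lists for neurons (12 genes), forebrain progenitors (10), skeletal muscle (9) and cranial mesenchyme (10), 1 point per sample with linear axes from 0. All 3 mutants lie above the controls for neurons, and control replicate 2 has the highest muscle sum and the lowest forebrain progenitor sum.

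The first replicates set some imprinted genes apart in both genotypes. Of the 26 genes, 9 (34.6%) had both first replicates above or both below all other 4 samples, against 53.1% of all genes tested. *Plagl1*, *Mest*, *Magel2*, *Peg12* and *Blcap* were the 5 above, and *H19*, *Peg3*, *Sgce* and *Gnas* the 4 below. The median size of the gap between first and other replicates was 0.22 on the log2(FPKM + 1) scale for the 26 genes and 0.16 for all genes tested, larger for both than the median size of the genotype difference.

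Other genes of the imprinting system were read from 2 further lists. Of 44 other imprinted genes 37 had a row and 19 passed the filter. None of the 19 had an unadjusted p under 0.05, with 5 positive and 14 negative differences and a median of -0.040. Of all 10061 genes tested, 5311 differences were positive and 4750 negative, with a median of 0.0057. The direction of the list as a whole was not tested. *Igf2*, the growth factor gene that shares its control region with *H19*, had a mean of 712 ± 76.9 in controls and of 666 ± 47.6 in mutants (SD, n = 3 each), a log2 difference of -0.092 (SE 0.12). *Igf2r*, the receptor that clears IGF2, was at 23.8 ± 7.85 and 20.4 ± 0.859, a log2 difference of -0.16 (SE 0.22). Among those under the filter *Klf14*, a maternally expressed transcription factor gene, was at 1.39, 1.79 and 1.77 in controls and 1.29, 1.05 and 0.976 in mutants, so all 3 mutants were below all 3 controls. In limma without a filter its log2 difference was -0.33 (SE 0.11), with an unadjusted p of 0.021 and an adjusted p of 1. Without a filter 2.87% of 23063 genes had an unadjusted p under 0.05. Of 13415 genes with an FPKM above 1 in all samples of a genotype, 5.96% had groups that did not overlap. *Tfpi2*, with no value above 0.426, also had all 3 mutants below all 3 controls. Of 25 genes that set, keep or erase imprints 19 passed the filter, again with none at an unadjusted p under 0.05, 13 positive and 6 negative differences and a median of 0.026. *Dnmt1* had a mean of 58.0 ± 13.1 in controls and of 58.8 ± 10.7 in mutants, a difference smaller than the spread between replicates. *Trim28* was between 235 and 257 in all 6 samples, with a log2 difference of 0.017 (SE 0.082). *Zfp57*, chosen after its values were seen, had the most negative difference of the 19, at 53.3, 48.99 and 40.8 in controls and 50.4, 34.4 and 36.4 in mutants, a log2 difference of -0.25 (SE 0.16). Its control and mutant values overlapped.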

How the data were processed

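RNA-Seq of poly(A)+ RNA was performed by the authors on microdissected craniofacial tissue from 3 control and 3 *Rbfox2* mutant embryos, with stranded libraries and paired-end reads. Samples were assigned to genotype and replicate from their labels, which call the replicates independent biological ones. The submitters' processing notes name FastQC 0.11.4, STAR, Cuffdiff and the build GRCm38. The annotation release, the software versions of STAR and Cuffdiff and the step that made the gene table are not given in the sources used here. The authors deposited FPKM values for 38553 genes in 1 table of all samples and 6 tables of single samples, which differed in 0 values. FPKM divides by gene length and mapped fragments, so the reads behind a value are lost, counting error could not be given, and low values are the least precise.

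Genes with an FPKM over 5 in all samples of a genotype were kept (10061), transformed as log2(FPKM + 1), where 1 is the pseudocount, and tested between genotypes by limma 3.58.1 (R 4.3.3) with its trend option, no covariate and Benjamini-Hochberg adjustment over all genes tested. Fold changes on this scale understate changes of low genes. An exact two-sided permutation test of FPKM was run for each gene as well. Sequences came from RefSeq tables for GRCm38.p6, and gene coordinates from a GENCODE annotation of GRCm38.

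The imprinted genes, marker lists and other lists were chosen with earlier results of these data known. All 35 genes were accounted for: tested genes are given in every sample, and genes under the filter by range, or in every sample where the mean reached 1. Of the other lists, genes with an unadjusted p under 0.05 were to be named, and *Igf2*, *Igf2r*, *Dnmt1* and *Trim28* in any case. Alternatives were a pseudocount of 0.1, median ratio scaling, quantile normalization, a filter of 1 and no filter, no trend, a replicate block, a first-replicate term, a Y-linked covariate, replicates 2 and 3 only, and each sample left out. Across genes, a sample's deviation from its group mean correlated with that of the sample of the same number in the other genotype at 0.64, 0.26 and 0.51, and the numbers were taken as pairs. The correlation was 0.40 for control replicate 3 with mutant replicate 2, and 0.23 for control replicate 2 with mutant replicate 3. The values thus set the first replicates apart but hardly distinguish numbers 2 and 3. This pairing comes from the data, since the labels tie no litter or day to a number. The pair of *Kcnq1ot1* and *Cdkn1c* was not analysed here.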

Additional observations from a re-analysis of the deposited data

How the results depend on the processing

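No imprinted gene passed an adjusted p of 0.05 under any alternative. Over all genes that count was 0 with all samples, 3 with a term for the first replicates, 4 on replicates 2 and 3 only and between 0 and 5 (without mutant replicate 3) when 1 sample was left out. Genes with an unadjusted p under 0.05 were 167, and became 304 with an FPKM filter of 1, 663 without a filter, 604 with the replicate block, 611 with the first-replicate term, 1130 on replicates 2 and 3 only and 78 to 690 when 1 sample was left out. Imprinted genes among them numbered 0, then 1, 1 (*Phlda2* in both), 2, 2, 8 and 0 to 8 in the same order. The replicate block, which rests on the pairing of equal replicate numbers, changed no call but those of *Plagl1* and *Nap1l5*. The median of the maternally expressed genes, -0.034, ran from -0.11 (without control replicate 1) to 0.0093 when 1 sample was left out. That of the paternally expressed genes, 0.0082, ran from -0.046 to 0.086 (without mutant replicate 2), was 0.069 without control replicate 2, and was 0.093 with the Y-linked covariate.

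The Y-linked covariate was high only in mutant replicates 1 and 2. With it the genotype difference rests on mutant replicate 3, the only female mutant, against the controls, and effects of sex cannot be separated well. Some differences changed sign. With the Y-linked covariate these were *Peg10* (0.035), *Mest* (-0.024), *Grb10* (0.065), *Impact* (0.32), *Gnas* (0.12), *Asb4* (0.0045), *Blcap* (-0.077) and *Trappc9* (-0.027). On replicates 2 and 3 only they were *Mest* (-0.024), *Impact* (0.0039), *Sgce* (-0.019), *Zdbf2* (-0.053) and *Trappc9* (-0.0042), and with median ratio scaling *Sgce* (-0.0039). Differences that kept their sign also moved with the Y-linked covariate. Closer to none were *Nap1l5* (0.16, SE 0.24), *Snrpn* (0.13, SE 0.16) and *Ndn* (0.20, SE 0.30). Further from it were *Plagl1* (-0.38, SE 0.17) and *Zim1* (-0.52, SE 0.33). When 1 sample was left out, *H19* ran from -0.35 to 0.024, *Peg3* from -0.43 to 0.070, *Peg10* from -0.23 to 0.00074, *Mest* from -0.084 to 0.086, *Grb10* from -0.16 to 0.061, *Impact* from -0.18 to 0.093, *Sgce* from -0.11 to 0.089, *Gnas* from -0.28 to 0.15, *Zdbf2* from -0.046 to 0.12, *Blcap* from -0.037 to 0.25, *Trappc9* from -0.0015 to 0.069 and *Copg2* from -0.013 to 0.052. The cause of these changes was not tested. Genes under the FPKM filter had values only in fits with a filter of 1 or none. With 3 samples a genotype and no read counts behind the values, the differences of the tested genes could not be told from the spread between samples, and sex and genotype were not balanced.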
